A study of Mus musculus with 6 samples.

Results

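The miR-26 family was compared between small EVs from cultures of activated splenocytes and the T cell blasts of such cultures. Its members were taken by name: of 5 mature arms that 3 mouse precursors can give, 4 were among the 451 miRNAs listed (mmu-miR-26a-5p, mmu-miR-26b-5p, mmu-miR-26b-3p and mmu-miR-26a-2-3p), and mmu-miR-26a-1-3p was not analysed here. Small EVs (n = 3) were pelleted at 100000 g from supernatants of 6-day cultures, and T cell blasts (n = 3) were the cells that such cultures hold. All 6 libraries came from wild-type C57BL/6 mice aged 8 to 12 weeks, whose total splenocytes received 2 μg/ml of the T cell mitogen concanavalin A, were washed after 36 h and were then expanded in 50 U/ml IL-2 with EXO-free FBS. T cells were not sorted in this protocol, and how many mice went into a culture is not given in the sources used here. Libraries are numbered 1, 2 and 5 in both groups, and the methods speak of independent experiments.

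miR-26 is a conserved miRNA whose precursors lie inside the genes of the Ctdsp phosphatases, enzymes that act on the tail of RNA polymerase II and on the RB protein. The miRNA is known to repress cell cycle genes, among them cyclins and Cdk6, as well as Ezh2, and to be repressed by MYC in lymphoma cells. A miRNA precursor gives a 5p and a 3p arm, of which one is usually kept as the guide. A guide finds its targets mainly through its seed, bases 2 to 8, so miRNAs with the same seed share most of their predicted targets.

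The mature sequences of RefSeq show what can and cannot be told apart in these libraries, with the seed in capitals:
mmu-miR-26a-5p: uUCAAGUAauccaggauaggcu
mmu-miR-26b-5p: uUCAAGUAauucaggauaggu
mmu-miR-26b-3p: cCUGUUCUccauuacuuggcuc
mmu-miR-26a-2-3p: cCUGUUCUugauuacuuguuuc
mmu-miR-26a-1-3p: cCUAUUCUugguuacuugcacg
Both 5p arms carry the seed UCAAGUA, and no other mature mouse miRNA of the RefSeq table does. Over their shared 21 bases they differ at 2 positions, counted from the 5′ end, C11U and C21U from mmu-miR-26a-5p to mmu-miR-26b-5p, and mmu-miR-26a-5p is 1 base longer, with 22 nt. A read of 20 bp from the first base spans position 11 but not position 21, so that a single base then separates the names. The listed 3p arms share the seed CUGUUCU and differ at 4 of 22 positions.

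The precursors show why mmu-miR-26a-5p has no locus of its own, with the mature arms in capitals:
Mir26a-1: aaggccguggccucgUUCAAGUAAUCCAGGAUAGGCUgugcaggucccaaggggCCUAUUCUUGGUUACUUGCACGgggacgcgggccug
Mir26a-2: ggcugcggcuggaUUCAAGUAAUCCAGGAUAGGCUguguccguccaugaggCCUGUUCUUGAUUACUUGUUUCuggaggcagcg
Mir26b: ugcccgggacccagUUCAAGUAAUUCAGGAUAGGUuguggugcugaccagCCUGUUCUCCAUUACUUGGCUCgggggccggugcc
Mir26a-1 (GRCm38.p6, plus strand, chr9:119031796-119031885) lies in intron 5 of the principal transcript of Ctdspl. Mir26a-2 (plus strand, chr10:126995530-126995613) lies in intron 5 of the principal transcript of Ctdsp2, and overlaps exons of 2 other annotated transcripts of that gene. Mir26b (plus strand, chr1:74394310-74394394) lies in intron 4 of the principal transcript of Ctdsp1. Mature mmu-miR-26a-5p is identical in Mir26a-1 and Mir26a-2, so its reads cannot be divided between them. Of the miR-26a arms, only the 3p arms name a locus.

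The table held 261393 to 463498 recovered reads per library of small EVs and 236432 to 279737 per library of T cell blasts, and 3 reads, which a count of 0 cannot exclude, were worth 6.28 to 10.4 CPM (small EVs) and 11.0 to 14.4 CPM (T cell blasts). T cell blasts 5 had the fewest reads. Its top miRNA was mmu-miR-5099 (13.2% of its CPM), whereas mmu-miR-92a-3p led every other library. Over all 451 miRNAs, 95 (21.1%) were called higher and 56 (12.4%) lower in small EVs, 33.5% in either direction (limma, adjusted p under 0.2). The balance follows the scaling, with 110 higher and 48 lower when libraries were rescaled to an equal sum, and 81 higher and 78 lower when they were rescaled to the miRNAs that each held under 5% of the reads. The lymphoid markers were abundant in both groups, with 3 of 6 higher and 2 of 6 lower in small EVs, and their sum spanned 68053 to 92369 CPM for small EVs and 87285 to 108969 CPM for T cell blasts. Of 4 stromal and endothelial markers 3 were measured and all 3 were higher in small EVs, with sums of 556 to 817 CPM against 47.9 to 66.0 CPM for T cell blasts. Both red cell markers summed to 10.9 to 31.4 CPM in small EVs and had no read in T cell blasts, and the myeloid mmu-miR-223-3p spanned 15.3 to 20.9 CPM for small EVs and 0 to 3.67 CPM for T cell blasts. The red cell markers rest on 22 and 5 reads in small EVs. The stromal mmu-miR-199a-3p, with 18 reads in small EVs, also had none in T cell blasts. Listing required 1 CPM or more in at least 3 libraries, which these markers could meet only in small EVs. That they were higher there was thus fixed by the filter. Of 3 epithelial markers 2 were measured and neither was called, with sums of 27.8 to 54.5 CPM in small EVs against 14.4 to 59.9 CPM in T cell blasts, and the liver marker mmu-miR-122-5p was not among the miRNAs listed. The part of these markers in the miR-26 values was not tested. In bulk RNA of the T cell blasts, fewer cells of a type and less RNA per cell cannot be told apart. For small EVs, the source of these markers was not tested.

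No difference in the summed level of both guides was detected between small EVs and T cell blasts (log2 difference -0.06, 2-sided exact permutation p = 0.6). The mix of the guides separated the groups in these libraries. In small EVs mmu-miR-26b-5p took 25.5% ± 2.5 (SD, n = 3) of the reads of both guides, against 19.6% ± 2.2 (SD, n = 3) in T cell blasts. The groups did not overlap (2-sided exact permutation p = 0.1, the smallest that 3 against 3 allow). Ratios of miRNAs with a shared seed and a mean of at least 100 CPM each also lacked overlap in 51.9% of pairs. Of the 4 arms, mmu-miR-26b-5p was called higher in small EVs and the other 3 did not pass, against 33.5% of all miRNAs called in either direction.

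The major guide was mmu-miR-26a-5p, made from both 26a precursors. It had 19212, 18883 and 12076 CPM in small EVs 1, 2 and 5, against 20809, 20258 and 14822 CPM in T cell blasts 1, 2 and 5. Both libraries numbered 5 were the low ones of their group. The groups overlapped, although in the deposited CPM small EVs were lower within each number. This direction follows the scaling. As a share of all reads, mmu-miR-26a-5p made up 1.98%, 1.99% and 1.33% in small EVs 1, 2 and 5. In T cell blasts 1, 2 and 5 mmu-miR-26a-5p made up 2.01%, 1.98% and 1.31%. In the order of all miRNAs it ranked 12 to 17 in single libraries of small EVs and 11 to 13 in T cell blasts. Its log2 fold change in small EVs was -0.17 (standard error 0.23, 95% interval -0.69 to 0.35, adjusted p = 0.676, limma), which leaves room for a fall or a rise.

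The minor guide, mmu-miR-26b-5p, comes only from Mir26b. It had 6311, 5774 and 4757 CPM in small EVs 1, 2 and 5, against 4735, 4480 and 4207 CPM in T cell blasts 1, 2 and 5. Every small EV library lay above every library of T cell blasts, although small EVs 5 exceeded T cell blasts 1 by little. Such a lack of overlap with small EVs on top was found in 20.4% of all miRNAs, and in 34.8% in either direction. The log2 fold change was 0.32 (standard error 0.14, adjusted p = 0.181, limma; 2-sided exact permutation p = 0.1, the smallest that 3 against 3 allow), or 1.25-fold, and its 95% interval ran from -0.01 to 0.65. The call was lost without small EVs 1 or 2 (adjusted p = 0.406 and 0.373, limma), without T cell blasts 1, 2 or 5 (0.203, 0.347 and 0.266), with libraries rescaled to the sum of those miRNAs that each held under 5% of the reads (0.521), and when recovered reads were tested in edgeR (0.263) or DESeq2 (0.279). With the replicate number as a block the adjusted p was 0.113 (limma), and 0.233 in edgeR with the block.

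**Figure D1:**
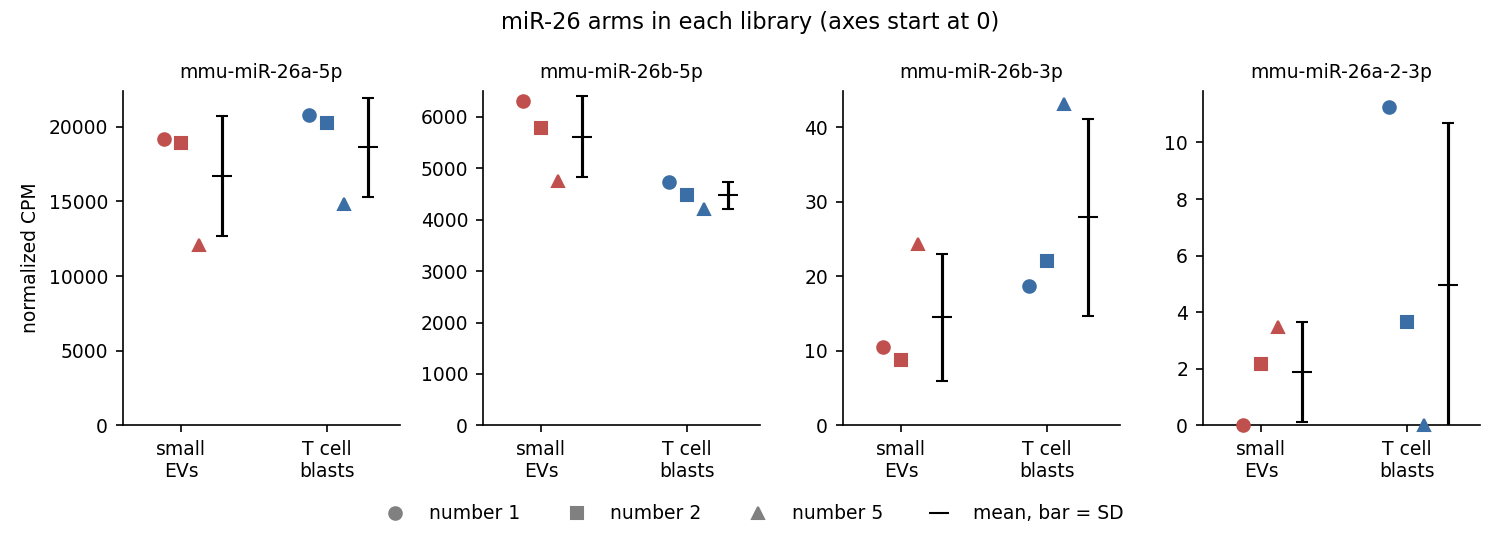
Normalized CPM of the 4 listed miR-26 arms in each library of small EVs (left of each panel) and of T cell blasts (right), with symbols for the replicate number and the group mean with its SD (n = 3; a bar that would pass below 0 stops at the axis). The mmu-miR-26b-5p points of small EVs (4757 to 6311 CPM) lie above those of T cell blasts (4207 to 4735 CPM), whereas in the other panels the groups overlap.

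The ratio of the guides does not depend on how libraries are scaled to each other. Per library, mmu-miR-26b-5p made up 24.7%, 23.4% and 28.3% of the reads of both guides in small EVs 1, 2 and 5, against 18.5%, 18.1% and 22.1% in T cell blasts 1, 2 and 5. The share was higher in all 3 small EV libraries than in any library of cells, and the libraries numbered 5 had the highest share of their group. The Wilson intervals of small EVs 2 (22.6% to 24.2%) and T cell blasts 5 (20.8% to 23.4%) overlapped, and their gap is within counting error. Within numbers, small EVs exceeded T cell blasts by 6.19, 5.31 and 6.15 percentage points for 1, 2 and 5.

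On the log2 scale, the ratio of mmu-miR-26b-5p to mmu-miR-26a-5p was 0.49 higher in small EVs, or 1.40-fold (2-sided exact permutation p = 0.1, the smallest possible). It was -1.61, -1.71 and -1.34 in small EVs 1, 2 and 5, against -2.14, -2.18 and -1.82 in T cell blasts 1, 2 and 5. The differences within numbers were 0.53, 0.47 and 0.47, with an SD of 0.03, and 3 pairs allow no p under 0.25 in an exact sign-flip permutation test. Leaving out any single library gave 0.39 to 0.60. The groups did not overlap, as was the case for 29.1% of the 450 ratios of other miRNAs to mmu-miR-26a-5p.

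Differences of this size were common among miRNAs with a shared seed. Among 79 pairs with the same seed and a mean of at least 100 CPM each, taken from 19 seeds, the ratio had groups without overlap in 51.9%. The median absolute difference of these pairs was 0.49 on the log2 scale, and 38 pairs differed by more than mmu-miR-26b-5p and mmu-miR-26a-5p. All pairs share the same 6 libraries, and several share a member.

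**Figure D2:**
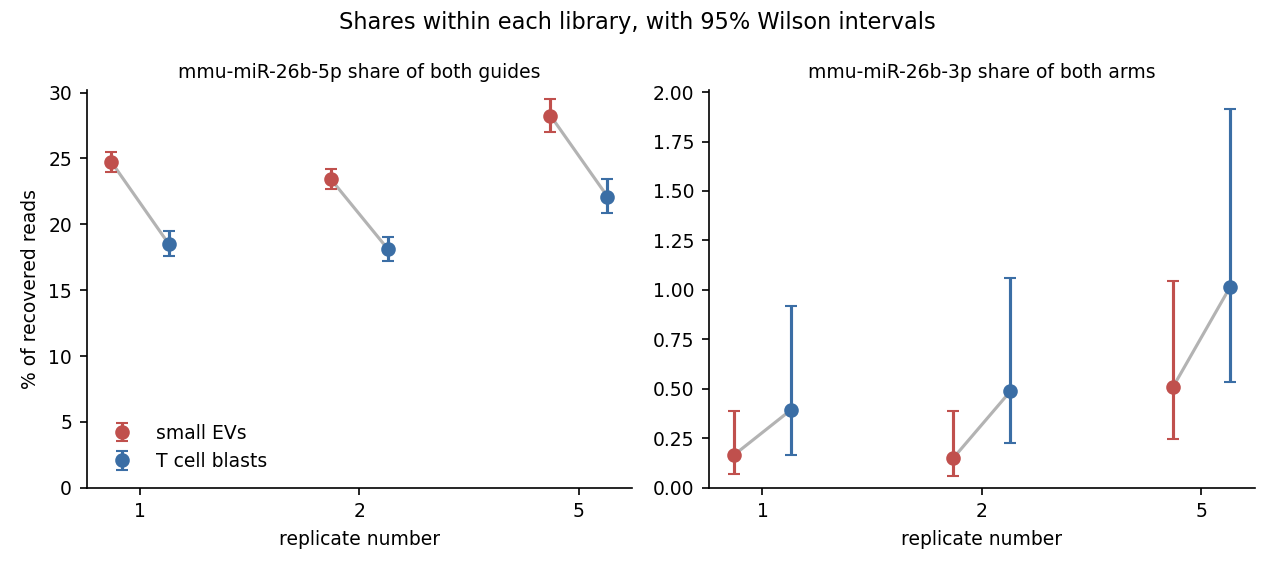
Shares of recovered reads within each library, by replicate number, for small EVs (left point of each pair) and T cell blasts (right point), with 95% Wilson intervals and grey lines joining libraries of the same number. The share of mmu-miR-26b-5p among both guides is higher in small EVs for each number (24.7%, 23.4% and 28.3% against 18.5%, 18.1% and 22.1%), and the share of mmu-miR-26b-3p among the arms of its precursor is lower for each number, with wide intervals.

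The summed level of both guides, which is the amount of the seed UCAAGUA, was 25523, 24657 and 16833 CPM in small EVs 1, 2 and 5, against 25544, 24738 and 19029 CPM in T cell blasts 1, 2 and 5. Libraries 1 and 2 differed little between the groups, and in number 5 small EVs held less. The log2 difference was -0.06, or 0.96-fold (2-sided exact permutation p = 0.6). As a share of all reads the guides together made up 2.63%, 2.60% and 1.85% in small EVs and 2.47%, 2.41% and 1.68% in T cell blasts, so the sign of this difference follows the scaling.

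The 3p arms, the passenger strands of these precursors, were rare. mmu-miR-26b-3p had 10.5, 8.74 and 24.3 CPM in small EVs 1, 2 and 5, from 5, 4 and 7 reads, against 18.7, 22.0 and 43.1 CPM in T cell blasts 1, 2 and 5, from 5, 6 and 9 reads. Small EVs were lower for each number, but small EVs 5 lay above T cell blasts 1 and 2. It was 0.94 lower on the log2 scale (log2 fold change -0.94, standard error 0.55, 95% interval -2.22 to 0.34, adjusted p = 0.309, limma), and pooled over libraries, 16 reads in small EVs against 20 in T cell blasts correspond to a depth-scaled ratio of 0.490 (95% counting interval 0.237 to 0.994). That counting interval treats pooled reads as the sample and omits the spread between libraries. Without small EVs 5, mmu-miR-26b-3p was called lower in small EVs (log2 fold change -1.36, adjusted p = 0.156, limma).

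Relative to its own guide, mmu-miR-26b-3p made up 0.166%, 0.151% and 0.508% of the reads of the Mir26b arms in small EVs 1, 2 and 5, against 0.394%, 0.489% and 1.01% in T cell blasts 1, 2 and 5. The log2 ratio of the 3p to the 5p arm was 1.26 lower in small EVs (difference -1.26, 2-sided exact permutation p = 0.3), and the groups overlapped. Of 108 precursors with both arms listed, 64 had a lower ratio of the rarer to the more abundant arm in small EVs, with a median difference of -0.29, and 24 had a lower value than Mir26b. For minor arms with a mean of at least 10 CPM the median was -0.50 over 68 precursors, of which 18 lay below Mir26b.

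From Mir26a-2, mmu-miR-26a-2-3p had 0, 1 and 1 reads in small EVs 1, 2 and 5, against 3, 1 and 0 reads in T cell blasts 1, 2 and 5. All values were thus at or under 3 reads, and a difference was not detectable at this depth (ratio 0.306, 95% counting interval 0.0277 to 2.14; log2 fold change -0.67, adjusted p = 0.744, limma).

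**Figure D3:**
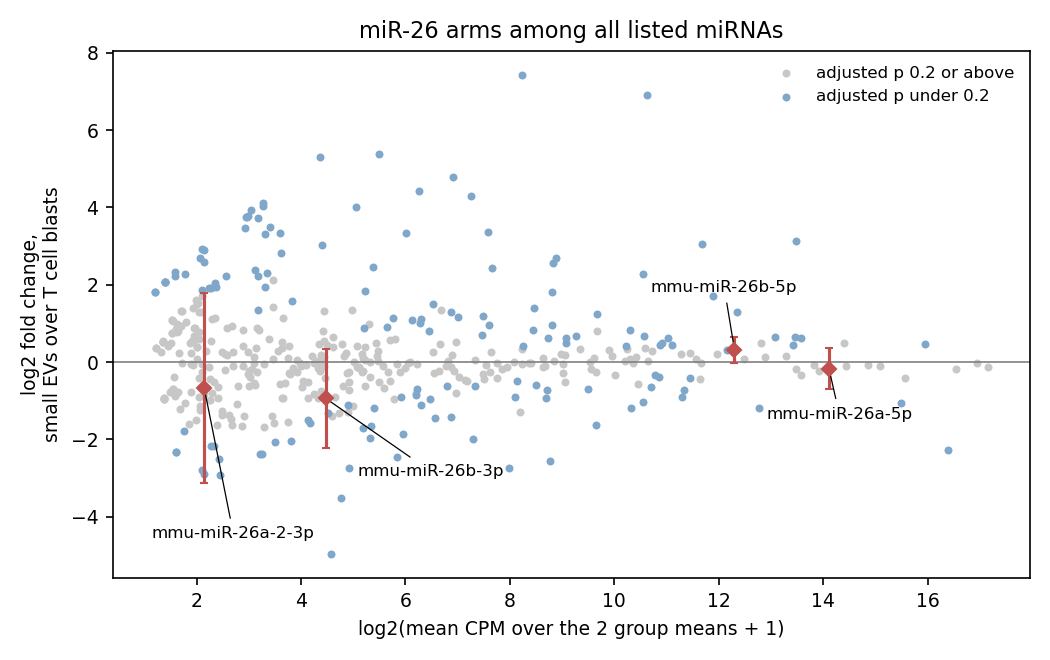
log2 fold change in small EVs over T cell blasts against mean level for all 451 miRNAs, with the 4 miR-26 arms as diamonds with their 95% limma intervals. Both guides sit among the abundant miRNAs close to 0 (0.32 for mmu-miR-26b-5p and -0.17 for mmu-miR-26a-5p), and the intervals of both 3p arms, from few reads, cross 0.

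In the order of mean levels over all libraries, given as CPM of reads and not per length, mmu-miR-26a-5p stood 12th and mmu-miR-26b-5p 28th. Just above mmu-miR-26a-5p were mmu-let-7i-5p, whose libraries spanned 19725 to 23563 CPM for small EVs and 21523 to 23704 CPM for T cell blasts, and mmu-miR-22-3p, and just below it were mmu-miR-148a-3p and mmu-miR-30e-5p. Its range overlapped those of the last 3 in both groups, but not that of mmu-let-7i-5p in either. Next to mmu-miR-26b-5p stood mmu-miR-93-5p and mmu-miR-155-5p above, and mmu-miR-29a-3p and mmu-miR-210-3p below. In both groups it overlapped the last 2. It overlapped mmu-miR-93-5p in small EVs and lay below it in T cell blasts (5107 to 6082 CPM for mmu-miR-93-5p). It lay below mmu-miR-155-5p, a miRNA induced by lymphocyte activation, in small EVs (6544 to 8527 CPM for mmu-miR-155-5p) and above it in T cell blasts (2289 to 3987 CPM). Levels of different miRNAs also carry the ligation bias of the library kit, which was not measured.

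Across the 6 libraries the guides did not follow each other closely (Pearson r = 0.32 on log2(CPM + 1), a description over 2 groups of 3 libraries). Among 142 other miRNAs with a mean of at least 100 CPM, the pattern most like that of mmu-miR-26a-5p was that of mmu-miR-101a-3p (r = 0.98), followed by mmu-miR-150-5p (0.94), mmu-miR-192-5p (0.89), mmu-miR-150-3p (0.88) and mmu-miR-15b-3p (0.85). mmu-miR-26b-5p stood at place 37 of that order. The pattern of mmu-miR-26b-5p was most like those of mmu-miR-30a-5p (r = 0.97), mmu-miR-15b-5p (0.96), mmu-let-7c-5p (0.96), mmu-let-7a-5p (0.96) and mmu-miR-151-3p (0.93). The likeness is taken over both groups, so the difference between small EVs and T cell blasts is part of it.

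The miRNAs that are known to share a regulator or a target with miR-26 gave mixed calls in the MYC list. In the short Ezh2 list the calls were higher, mostly for let-7 guides. Beside 21.1% of all miRNAs called higher and 12.4% called lower, of 20 other miRNAs repressed by MYC in lymphoma cells, all were measured, 3 were higher in small EVs, 4 were lower and 13 did not pass, with 2 to 3 higher and 2 to 6 lower over the 3 other scalings. Their median log2 fold change was -0.08, beside 0.02 for all 451. The most abundant were mmu-let-7f-5p (34196 ± 7649 CPM in small EVs and 35786 ± 1656 CPM in T cell blasts, SD, n = 3 each), mmu-miR-16-5p, mmu-miR-22-3p and mmu-let-7a-5p. Higher were mmu-miR-146a-5p, an inhibitor of NF-κB signalling (log2 fold change 1.71), mmu-let-7a-5p (0.63) and mmu-miR-29a-3p (0.32), and lower were mmu-miR-30b-5p (-0.71), mmu-miR-29b-3p (-0.62), mmu-miR-30c-5p (-0.41) and mmu-let-7d-5p (-0.34). Apart from mmu-let-7a-5p and mmu-miR-29a-3p these were named after their values were seen.

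Of 8 miRNAs known to repress Ezh2, the methyltransferase of Polycomb complex PRC2, 5 were measured and 4 were higher in small EVs (3 to 4 over the other scalings). They were mmu-let-7a-5p, mmu-let-7c-5p (0.62) and mmu-let-7b-5p (0.50), which are near copies of each other and may share reads, and mmu-miR-138-5p, with 16 reads in small EVs and 2 in T cell blasts, and the median of the 5 was 0.62. The one that did not pass was mmu-miR-101a-3p, with means of 928 CPM in small EVs and 1135 CPM in T cell blasts (limma: -0.33 on the log2 scale, standard error 0.26, adjusted p = 0.488). Other miRNAs with the let-7 seed and a mean of at least 100 CPM were not on the Ezh2 list. Of these, mmu-let-7d-5p (-0.34), mmu-let-7f-5p (-0.09) and mmu-let-7i-5p (-0.09) lay below 0, and mmu-let-7g-5p (0.16) lay above. The change of mmu-miR-98-5p differed from that of mmu-let-7a-5p by only 0.04. The count thus depends on which members were listed.

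The scaling between libraries shifted both guides together. Over all miRNAs the median change was 0.02 (log2) with the deposited CPM, 0.19 with libraries rescaled to an equal sum and -0.14 with libraries rescaled to miRNAs under 5%. Relative to that median, mmu-miR-26b-5p was at 0.30, 0.30 and 0.28 and mmu-miR-26a-5p at -0.19, -0.19 and -0.21. Rescaling shifts all miRNAs by nearly the same amount, so this near constancy is arithmetic and no test of the guides.

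**Figure D4:**
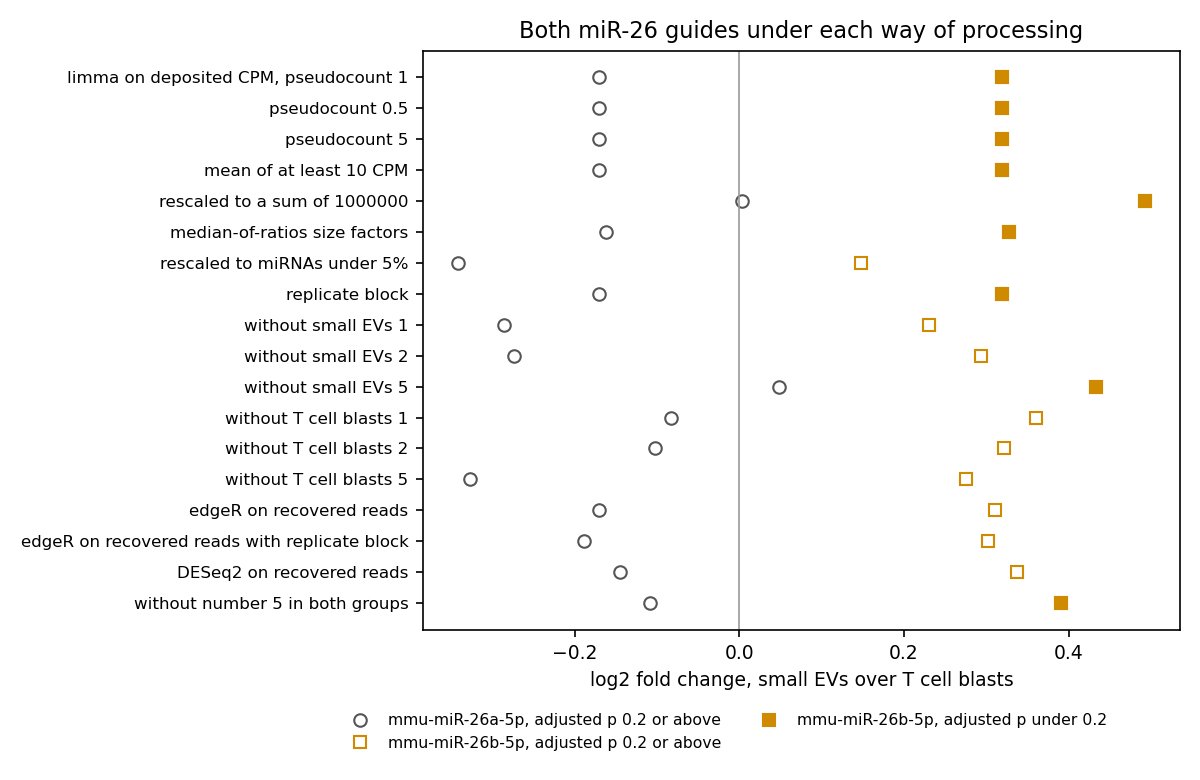
log2 fold changes of mmu-miR-26a-5p (circles) and mmu-miR-26b-5p (squares) under each way of processing, filled where the adjusted p was under 0.2. The squares range from 0.15 to 0.49 and the circles from -0.34 to 0.048, and in each setting the square lies to the right of the circle.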

How the data were processed

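The 6 libraries hold small RNA of small EVs from culture supernatants (n = 3) and of T cell blasts (n = 3), grouped by the sample titles. Per the methods and the labels, the authors trimmed reads with Cutadapt, dropped reads under 20 bp or without an adaptor, aligned them to mature mouse miRNAs of miRBase 21 (bowtie or BWA; the submitters' processing notes name BWA), counted them with RSEM 1.17 and normalized with TMM in edgeR. Base calling used CASAVA 1.8.2 per the processing notes. The deposited signal is therefore a normalized CPM, for miRNAs at 1 CPM or more in at least 3 libraries, which all 451 met. No genome build was involved. Values stepped by the worth of 1 read (100% whole within 0.05 of a read), which gave back the reads.

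Differences are small EVs minus T cell blasts, from limma 3.58.1 (R 4.3.3, with a trend) on log2(CPM + 1) over all 451 miRNAs, called at a Benjamini-Hochberg adjusted p under 0.2, the threshold of the methods. Ratios and single values were compared by 2-sided exact permutation (SciPy 1.17.1), for which 3 against 3 allow no p under 0.1. Shares carry 95% Wilson intervals, for counting error only. Deviations from the group means correlated between same-numbered libraries at 0.15, 0.16 and 0.34 for numbers 1, 2 and 5 over 284 miRNAs. Each was above 0.1, and differences within numbers are therefore also given. The numbers come from the sample titles, which do not say that libraries of the same number share a culture. The crossed pair of small EVs 1 and T cell blasts 2 reached 0.17, and that of small EVs 2 and T cell blasts 1 reached 0.11. These correlations thus do not tell numbers 1 and 2 apart. The fit without the block was kept. Alternatives were pseudocounts of 0.5 and 5, only miRNAs averaging 10 CPM or more, the replicate block, 3 further scalings, omission of single libraries, a threshold of 0.05, and tests of recovered reads in DESeq2 1.42.0 and in edgeR 4.0.16. Omission of number 5 in both groups, the summed level of both guides and the ratio of plain reads were added after seeing the data. The fitting code was tested on simulated data with larger changes than those of the guides, so that test does not cover changes as small as theirs. Sequences and coordinates are those of RefSeq on GRCm38.p6, which matched 370 of the 451 names, and host genes those of GENCODE M21 on GRCm38. Named miRNAs are the miR-26 arms, their neighbours in level, the 5 most alike in pattern with a mean of at least 100 CPM, and up to 4 of the most abundant of each list. The top miRNA of each library and further miRNAs with the let-7 seed were named after their values were seen. Apart from the lists given in the text, 1 further list is not reported here. Members and lists were chosen with earlier results of these data known.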

Additional observations from a re-analysis of the deposited data

How the results depend on the processing

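For mmu-miR-26b-5p the direction held in all 18 alternatives and the call in 8. Among these, the limma replicate block and the threshold of 0.05 return the same value, and the pseudocounts hardly move it. They could not change the direction. The log2 fold change of mmu-miR-26b-5p was 0.15 with libraries rescaled to miRNAs under 5%, 0.31 in edgeR, 0.30 in edgeR with the replicate block and 0.34 in DESeq2, none of which passed. At a threshold of 0.05 the value of 0.32 did not pass, and without one library it was 0.23 to 0.43. mmu-miR-26a-5p passed in none and turned to 0.0034 with libraries rescaled to an equal sum. Without one library it was -0.33 to 0.048, above 0 without small EVs 5. mmu-miR-26b-3p passed in 2, without small EVs 5 (-1.36) and without number 5 in both groups (-1.01), and was -1.36 to -0.59 without one library. mmu-miR-26a-2-3p was -1.64 to 0.17 without one library, above 0 without T cell blasts 1, and its ratio to mmu-miR-26a-5p was -1.31 to 0.26, above 0 without small EVs 1 or T cell blasts 1. The log2 ratio of mmu-miR-26b-5p to mmu-miR-26a-5p moved by less than the spread between replicates in all 11 alternatives (0.39 to 0.60), as did the ratio of the Mir26b arms in 10 (-1.79 to -0.87) and the summed level in 11 (-0.23 to 0.13). For each of these the replicate block equals the main value by arithmetic. The pseudocounts and plain reads left the ratio of the guides at 0.49, so only the omission of libraries could move that ratio. With the replicate block in limma no miR-26 call changed. The 95 higher calls became 61 at a mean of at least 10 CPM, where fewer miRNAs were tested, and the calls became 58 higher and 29 lower at 0.05. With libraries rescaled to an equal sum, 2 of the MYC list were lower. The causes were not tested. With 0 to 9 reads per library the 3p arms are limited by depth.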
